A study of Homo sapiens with 2 samples.

Results

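The genes described here are the HOX cluster genes of 786-O, a human cell line grown from a clear cell carcinoma of the kidney. They were chosen as every gene model whose symbol is HOX followed by a cluster letter from A to D and a number, which gave 39 of the 22595 gene symbols in the deposited tables: 11 in the HOXA cluster, 10 in HOXB, 9 in HOXC and 9 in HOXD. One culture was kept in medium with 0 mM glucose and the other in medium with 25 mM glucose, and 1 RNA library was sequenced from each, to profile the response to glucose starvation. No treatment time, clone or further genotype is stated, and each label carries a short code that is not explained. With 1 library per group no difference below has a replicate check, no p-value is given, and the statements describe this pair of libraries.

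HOX genes encode transcription factors that bind DNA through a homeodomain and give cells of the embryo their position along the body axis. Genes with the same number in different clusters are paralogs, and their order on the chromosome follows the order in which they are used from head (low numbers) to tail (high numbers). Many stay active in adult tissues with the pattern of their place of origin, and in the mouse the group 11 paralogs are needed to form the kidney. The chromatin of the clusters is held silent by Polycomb complexes and active by Trithorax complexes such as MLL, retinoic acid activates genes of the low-number end, and PBX and MEIS proteins bind DNA together with HOX proteins.

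The clusters lie, in hg19 coordinates, on chromosome 7 from 27132614 to 27239725 (HOXA, minus strand), chromosome 17 from 46606807 to 46806111 (HOXB, minus strand), chromosome 12 from 54332576 to 54449814 (HOXC, plus strand) and chromosome 2 from 176957532 to 177055635 (HOXD, plus strand). They also hold microRNA genes, and 6 loci of the miR-10, miR-196 and miR-615 families were in the tables, all of them matched to RefSeq (build GRCh38.p14) by name. Their mature forms are shown because the families lie between HOX genes and because their seeds, bases 2 to 8 in capitals, define which messages they can pair with. The locus is named after each.
hsa-miR-10a-5p (MIR10A, between HOXB4 and HOXB5): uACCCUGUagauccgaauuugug
hsa-miR-196b-5p (MIR196B, between HOXA9 and HOXA10): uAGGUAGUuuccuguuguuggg
hsa-miR-196a-5p (MIR196A1 in HOXB, MIR196A2 in HOXC): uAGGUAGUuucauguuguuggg
hsa-miR-615-3p (MIR615, within the HOXC5 gene model): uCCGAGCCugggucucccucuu
hsa-miR-10b-3p (MIR10B, between HOXD4 and HOXD8): aCAGAUUCgauucuaggggaau
The miR-196a and miR-196b forms share the seed AGGUAGU. For MIR10B the reference used held only the 3p form, so its 5p form is not shown. The seeds of the 5p forms of miR-10a and miR-10b are therefore not compared, and the miR-10 seed used below is that of hsa-miR-10a-5p.

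The promoters below are shown for their place in the results: HOXA2 and HOXA4 had the lowest ratios of the measured HOX genes, and HOXD8 had the ratio nearest to equal. Each window runs from 250 bases before to 50 after the RefSeq start in GRCh38.p14, read on the strand of the gene. Capitals mark the CCAAT box, the E box (CACGTG) and the PBX-HOX site (TGATNNAT) on either strand.
HOXA2 (chr7:27102634-27102933, minus strand): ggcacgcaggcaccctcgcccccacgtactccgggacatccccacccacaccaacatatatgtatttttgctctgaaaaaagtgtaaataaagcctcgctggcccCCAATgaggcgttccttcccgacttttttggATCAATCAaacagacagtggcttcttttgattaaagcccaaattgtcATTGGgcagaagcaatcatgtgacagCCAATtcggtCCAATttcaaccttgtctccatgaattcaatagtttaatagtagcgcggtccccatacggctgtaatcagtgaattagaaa
HOXA4 (chr7:27130708-27131007, minus strand): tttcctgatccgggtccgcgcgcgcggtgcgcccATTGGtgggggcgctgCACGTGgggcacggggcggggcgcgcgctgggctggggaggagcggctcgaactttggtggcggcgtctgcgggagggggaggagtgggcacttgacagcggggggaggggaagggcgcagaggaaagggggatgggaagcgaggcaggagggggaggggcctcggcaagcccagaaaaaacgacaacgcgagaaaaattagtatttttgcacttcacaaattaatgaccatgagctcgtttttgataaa
HOXD8 (chr2:176129455-176129754, plus strand): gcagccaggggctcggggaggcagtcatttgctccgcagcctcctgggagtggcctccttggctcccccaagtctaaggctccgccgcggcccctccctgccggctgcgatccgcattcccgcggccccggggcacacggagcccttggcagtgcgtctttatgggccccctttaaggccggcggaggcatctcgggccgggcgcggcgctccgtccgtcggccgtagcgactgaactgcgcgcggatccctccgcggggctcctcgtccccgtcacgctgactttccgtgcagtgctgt
HOXA2 holds CCAAT boxes on both strands and a PBX-HOX site, none of them overlapping, HOXA4 a CCAAT box and an E box, and HOXD8 none of the letters searched.

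Both libraries had HOX transcripts from every cluster, and most were fewer without glucose. The tables held 31345853 counts without glucose and 27317598 with glucose, and CPM below are counts per 1e6 of the library size after TMM scaling (factors 0.976 and 1.02). Summed over the 39 genes, the HOX counts were 7453 without glucose (244 CPM) against 13358 with glucose (477 CPM), a log2 ratio of -0.97. Its exact 95% counting interval ran from -1.01 to -0.93. Ratios are always the library without glucose over the library with glucose, and intervals cover counting error only. In whole cultures, fewer cells with a transcript and less transcript in each cell cannot be told apart.

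A gene counted as measured had at least 20 counts over both libraries, and it counted as lower or higher only where its whole interval lay past 2-fold. Of the 39 HOX genes 33 were measured, and 12 of these were lower (36.4%), against 6.05% of the 14240 measured genes of the tables. None of the 33 was higher, against 3.92% of all measured genes. The 12 were HOXA2, HOXA3, HOXA4, HOXA5, HOXA6, HOXA10, HOXA13, HOXB4, HOXB5, HOXB8, HOXD9 and HOXD10. Among genes with at least 100 counts, where intervals are narrow, 11 of 30 HOX genes were lower, against 6.31% of 12285 genes. Asking for 1.5-fold gave 20 HOX genes, against 12.2% of all measured genes, and asking for 4-fold left HOXA2 and HOXA4, against 1.01%. The median log2 ratio of the 33 was -0.98, while that of all measured genes was 0.03 and that of the 7778 measured genes within the same range of model length, 861 to 3614 bases, was 0.10.

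**Figure D1:**
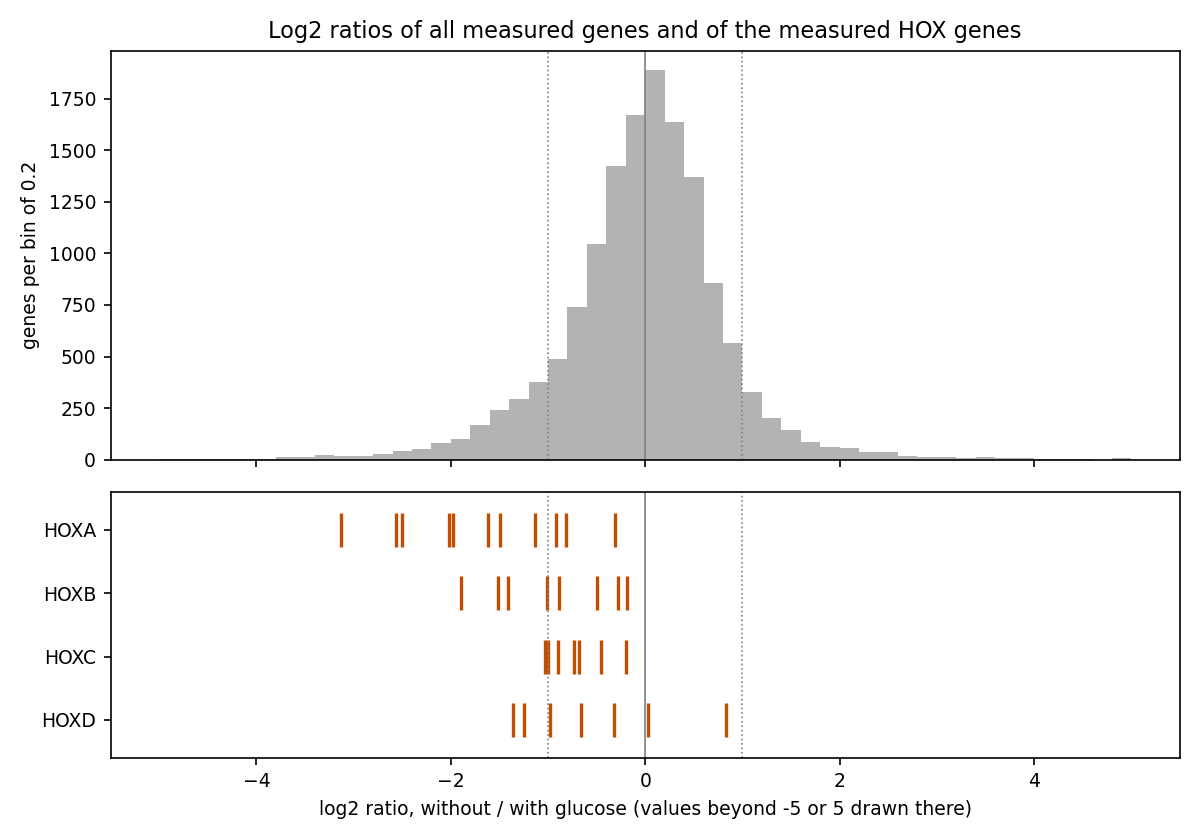
Distribution of log2 ratios (library without glucose over library with glucose) of the 14240 measured genes as a histogram above, and the 33 measured HOX genes by cluster as ticks below. Dotted lines stand at 2-fold in each direction. The HOX ticks run from -3.13 to 0.83, and 31 of 33 lie left of 0.

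Of the 33 ratios 31 were below 0. The interval lay wholly below 0 for 26 genes, against 35.9% of all measured genes, and wholly above 0 for 1, HOXD1, against 38.2%. It held 0 for 6 genes, HOXB2, HOXC4, HOXC11, HOXD3, HOXD4 and HOXD8. The ratio of HOXD8 changed sign with the scaling and its interval always held 0.

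Some renal and carcinoma line markers were expressed in both libraries, and others stood near 0. PAX8, a transcription factor of the renal lineage, had 233 CPM without glucose and 243 CPM with glucose, and VIM, vimentin, 5818 and 4316 CPM in the same order. Of the 12 renal and carcinoma line markers 10 were measured and 4 were lower, against 6.05% of all measured genes. Among the lower ones were LHX1, CDH6 and CA12. PAX2 stood at 1.21 CPM without glucose and 2.39 CPM with glucose. CA9 had 0 counts without glucose and 4 with glucose, EMX2 had 5 and 4 in that order, and neither was measured. Markers of other cell types stood low: 2 of the 4 erythroid markers had 0 counts in both libraries and the list summed to 0.0327 CPM without glucose and 0.0357 CPM with glucose, and the 5 endothelial markers to 0.686 and 2.32 CPM. The fibroblast markers summed to 5.36 CPM without glucose and 13.3 CPM with glucose, mostly LUM, and the leukocyte markers to 26.2 and 11.4 CPM, mostly CD68. Small RNA genes took 8.03% of the counts without glucose and 5.86% with glucose. The part of these differences in the HOX ratios was not tested, and without small RNA genes in the library sizes 11 HOX genes were lower.

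HOXA9 and HOXB9 were the most expressed HOX genes in both libraries. Levels are compared between genes as CPM per kilobase of gene model. HOXA9, a factor of blood stem cells that is overexpressed in leukemias, stood at 16.4 CPM per kilobase without glucose (counting interval 15.4 to 17.4) and 28.9 with glucose (27.6 to 30.4). HOXB9, a thoracic patterning gene, stood at 16.1 without glucose (15.2 to 17.0) and 19.6 with glucose (18.6 to 20.6). These intervals overlapped between the genes in the library without glucose and lay apart in the library with glucose.

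HOXD10, which patterns limbs and lumbar motor neurons in the mouse, ranked next in both libraries, at 7.13 CPM per kilobase without glucose and 16.9 with glucose. Below it without glucose stood HOXB7 (6.52 CPM per kilobase), HOXB2 (6.19), HOXB6 (5.45), HOXD11 (5.21), HOXB3 (4.51), HOXD8 (4.35) and HOXA10 (4.32). With glucose the order below HOXD10 was HOXA10 (12.2 CPM per kilobase), HOXB6 (11.0), HOXD11 (10.3), HOXA3 (10.05), HOXB4 (9.40), HOXB7 (9.22) and HOXA4 (9.09). The first 10 of the libraries shared 7 genes. In both libraries the intervals of neighbours overlapped from the fourth place to the tenth.

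The 6 HOX genes that were not measured lay at or next to an end of their cluster. HOXB1, the hindbrain gene, had 0 counts in both libraries, read here as up to 3 counts in each. The counting interval of its level reached 0.119 CPM per kilobase without glucose and 0.130 with glucose. HOXB13, a factor of prostate and hindgut, had 2 counts without glucose and 11 with glucose, and HOXD13, a gene of digit formation, 4 and 5 in that order. HOXC12 had 4 counts without glucose and 0 with glucose, HOXD12 2 and 0, and HOXC13, a gene of hair and nail, 5 and 1. None of them reached 20 counts, so no ratio is given. HOXA13 was the only group 13 gene measured.

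**Figure D2:**
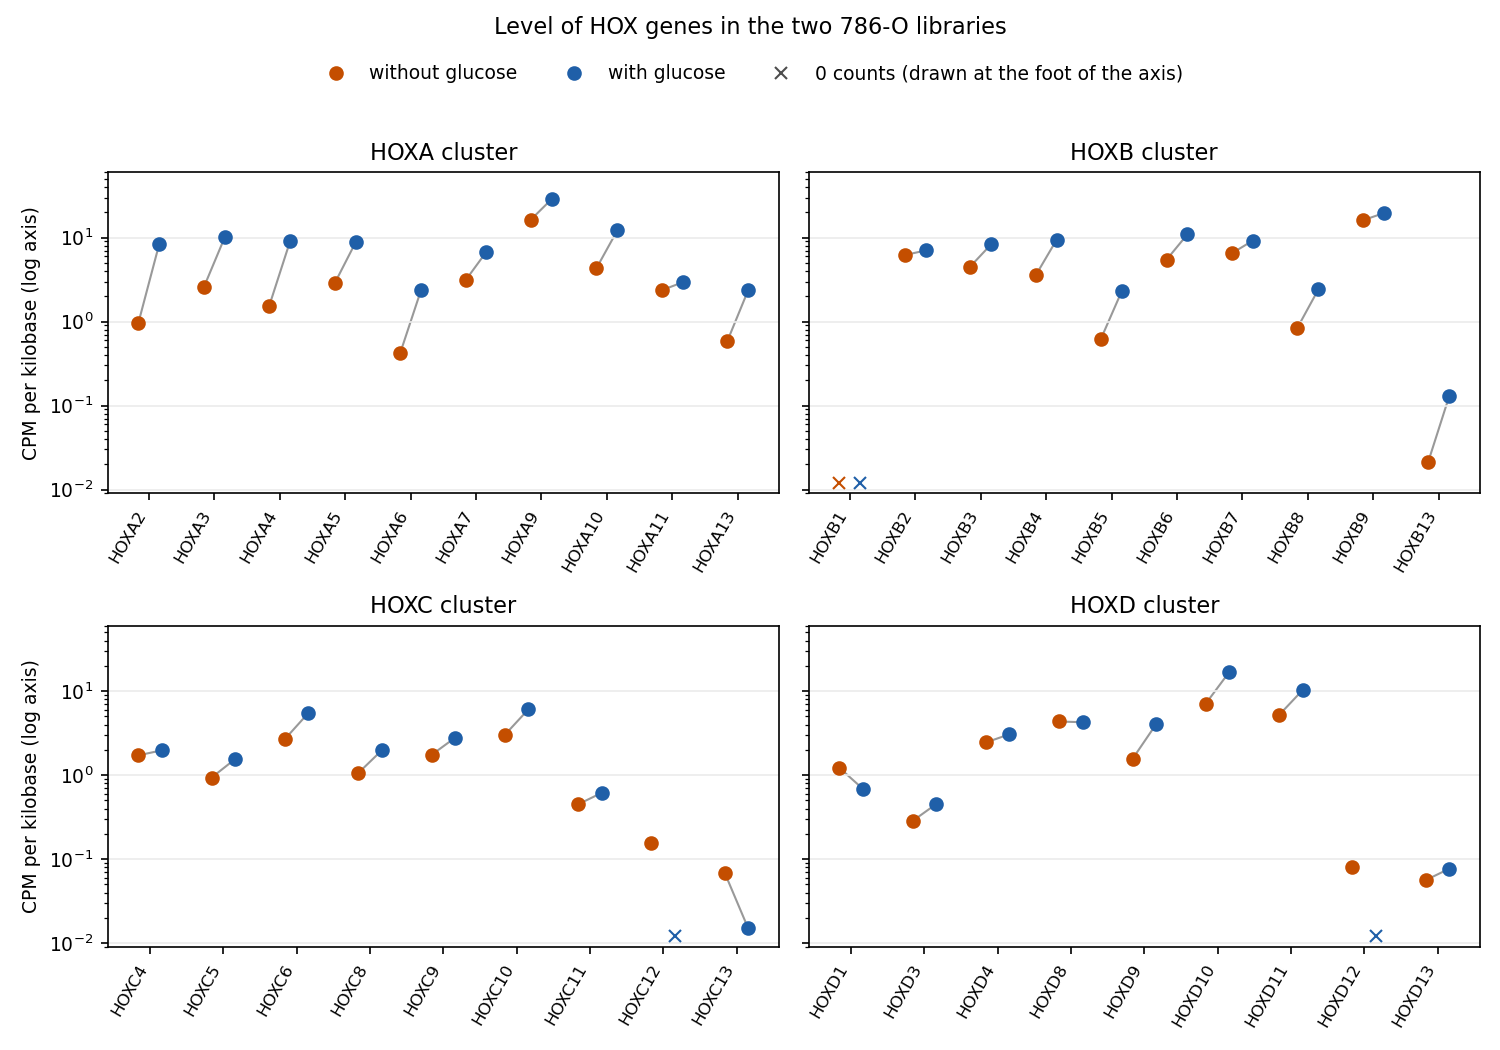
Level of the HOX genes in CPM per kilobase (log axis), with the library without glucose left of the library with glucose and a grey line between them where both have counts. HOXA9 and HOXB9 stand highest in both libraries, and the largest drops are in the HOXA panel, at HOXA2, HOXA4 and HOXA6.

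The HOXA cluster had the most genes that were lower, 7 of 11, and no ratio above 0. Its summed counts were 2563 without glucose (83.8 CPM) against 5997 with glucose (214 CPM), a log2 ratio of -1.36 (interval -1.42 to -1.29). HOXA2, which gives the second pharyngeal arch its identity, had 52 counts without glucose (1.70 CPM) against 417 with glucose (14.9 CPM). It was 8.77-fold lower (interval 6.56 to 11.9), and its ratio ranked 77 from the lowest of the 14240 measured genes. HOXA4, an axial patterning gene, had 81 counts without glucose (2.65 CPM) against 439 with glucose (15.7 CPM), 5.93-fold lower (4.67 to 7.61). HOXA3, needed in the mouse for thymus and parathyroid, had 271 counts without glucose (8.86 CPM) against 976 with glucose (34.9 CPM), 3.94-fold lower (3.44 to 4.52). These 3 neighbours were all within the 5 measured HOX genes of lowest ratio, with HOXA6 and HOXA13.

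Next to them, HOXA5, a gene of lung development in the mouse, had 116 counts without glucose (3.79 CPM) against 326 with glucose (11.7 CPM), 3.07-fold lower (2.48 to 3.83). HOXA6 had 11 counts without glucose (0.359 CPM) against 57 with glucose (2.04 CPM), 5.67-fold lower with a wide interval (2.94 to 12.0). The tables listed 0 of its 2 exons with more than 10 reads without glucose and 2 with glucose. From HOXA2 to HOXA6 every gene was thus lower.

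Beyond HOXA6, HOXA10 and HOXA13 were lower and HOXA7, HOXA9 and HOXA11 were not past the rule. HOXA7 had 191 counts without glucose (6.24 CPM) against 383 with glucose (13.7 CPM), with a log2 ratio of -1.13 (-1.39 to -0.88). HOXA9 had 1031 counts without glucose (33.7 CPM) against 1664 with glucose (59.5 CPM), a log2 ratio of -0.82 (-0.93 to -0.71). HOXA10, a gene of uterine development and receptivity, had 420 counts without glucose (13.7 CPM) against 1085 with glucose (38.8 CPM), 2.83-fold lower (2.52 to 3.17). HOXA9 and HOXA10 are neighbours, and their intervals did not overlap.

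HOXA11, one of the kidney and limb genes of group 11, had 192 counts without glucose (6.27 CPM) against 218 with glucose (7.79 CPM), a log2 ratio of -0.31 (-0.60 to -0.03). It was the HOXA gene nearest to equal levels. HOXA13, a gene of the distal limb and genital tract, had 45 counts without glucose (1.47 CPM) against 167 with glucose (5.97 CPM), 4.06-fold lower (2.90 to 5.77). The cluster thus spanned log2 ratios from -3.13 to -0.31, far wider than the counting intervals of HOXA2 and HOXA11.

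The HOXB cluster had 3 lower genes of 8 measured and a summed log2 ratio of -0.65 (-0.72 to -0.58), from 2984 counts without glucose (97.5 CPM) against 4286 with glucose (153 CPM). HOXB4, which promotes the growth of blood stem cells, had 220 counts without glucose (7.19 CPM) against 534 with glucose (19.1 CPM), 2.65-fold lower (2.26 to 3.12). HOXB5 had 35 counts without glucose (1.14 CPM) against 119 with glucose (4.25 CPM), 3.72-fold lower (2.53 to 5.59). HOXB8, known from myeloid cells, had 47 counts without glucose (1.54 CPM) against 123 with glucose (4.40 CPM), 2.86-fold lower (2.03 to 4.10), a call that was lost with DESeq2 size factors. These 3 did not stand side by side, since HOXB6 and HOXB7 lie between HOXB5 and HOXB8.

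HOXB6 had 279 counts without glucose (9.12 CPM) against 513 with glucose (18.3 CPM), and its log2 ratio of -1.01 (-1.22 to -0.79) was not wholly past 2-fold. HOXB3 had 499 counts without glucose (16.3 CPM) against 841 with glucose (30.1 CPM), a log2 ratio of -0.88 (-1.04 to -0.72). HOXB7 had 272 counts without glucose (8.89 CPM) against 352 with glucose (12.6 CPM), a log2 ratio of -0.50 (-0.73 to -0.27). The genes at both ends of the measured stretch came closest to equal levels. HOXB2, a hindbrain gene, had 303 counts without glucose (9.90 CPM) and 315 with glucose (11.3 CPM), with an interval from -0.42 to 0.05 around -0.19. HOXB9 had 1327 counts without glucose (43.4 CPM) and 1478 with glucose (52.8 CPM), a log2 ratio of -0.28 (-0.39 to -0.18). HOXB5 and HOXB6 are overlapped by LOC404266, which RefSeq names HOXB-AS3, on the opposite strand. It had 8 counts without glucose and 14 with glucose, and whether the counting used strand is not given.

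The HOXC cluster had no lower gene among 7 measured, and every ratio was below 0. Its summed counts were 743 without glucose (24.3 CPM) against 1181 with glucose (42.2 CPM), a log2 ratio of -0.80 (-0.93 to -0.66). HOXC6 had 184 counts without glucose (6.01 CPM) against 344 with glucose (12.3 CPM), a log2 ratio of -1.03 (-1.30 to -0.77). HOXC10, a lumbar patterning gene, had 181 counts without glucose (5.91 CPM) against 332 with glucose (11.9 CPM), a log2 ratio of -1.0 (-1.27 to -0.74). Both stood near 2-fold with intervals on either side of it.

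HOXC8, a thoracic gene, had 74 counts without glucose (2.42 CPM) against 126 with glucose (4.5 CPM), a log2 ratio of -0.90 (-1.33 to -0.47). HOXC9 had 82 counts without glucose (2.68 CPM) against 120 with glucose (4.29 CPM), a log2 ratio of -0.68 (-1.10 to -0.26). HOXC5 had 62 counts without glucose (2.03 CPM) against 94 with glucose (3.36 CPM), a log2 ratio of -0.73 (-1.22 to -0.25). These 3 lay below 0 by more than counting error. HOXC4 had 123 counts without glucose (4.02 CPM) and 129 with glucose (4.61 CPM), and HOXC11 had 28 (0.915 CPM) and 35 (1.25 CPM) in that order, and both intervals held 0. The gene models of HOXC4, HOXC5 and HOXC6 start at the same base, 54410642, and overlap, so their reads may be split between them in ways the tables do not show.

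The HOXD cluster was the most mixed, with 2 lower genes of 7 measured and the only ratios above 0. Its summed counts were 1163 without glucose (38.0 CPM) against 1894 with glucose (67.7 CPM), a log2 ratio of -0.83 (-0.94 to -0.73). HOXD10 had 393 counts without glucose (12.8 CPM) against 854 with glucose (30.5 CPM), 2.38-fold lower (2.11 to 2.69). HOXD9 had 90 counts without glucose (2.94 CPM) against 212 with glucose (7.58 CPM), 2.58-fold lower (2.0 to 3.33), the lower gene closest to the bound. HOXD9 lost the call with DESeq2 size factors and with small RNA genes left out of the library sizes. HOXD11, a kidney and limb gene like HOXA11, had 233 counts without glucose (7.61 CPM) against 421 with glucose (15.0 CPM), a log2 ratio of -0.98 (-1.22 to -0.75). These 3 neighbours lay close to each other, with overlapping intervals.

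No gene from HOXD1 to HOXD8 was past the rule. HOXD8 had 250 counts without glucose (8.17 CPM) and 224 with glucose (8.01 CPM), a log2 ratio of 0.03 (-0.24 to 0.30). HOXD4 had 97 counts without glucose (3.17 CPM) and 111 with glucose (3.97 CPM), a log2 ratio of -0.32 (-0.73 to 0.08), and HOXD3 had 20 (0.654 CPM) and 29 (1.04 CPM) in that order, a log2 ratio of -0.67 (-1.56 to 0.21) that overlapped those of HOXD9 to HOXD11. HOXD1, which acts in sensory neurons of the mouse, was the sole HOX gene with an interval wholly above 0. It had 74 counts without glucose (2.42 CPM) against 38 with glucose (1.36 CPM), a log2 ratio of 0.83 (0.25 to 1.44), not past the 2-fold rule. Its model is overlapped on the opposite strand by LOC401022, named HAGLR in RefSeq, a long noncoding RNA with 465 counts without glucose (15.2 CPM) against 553 with glucose (19.8 CPM).

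**Figure D3:**
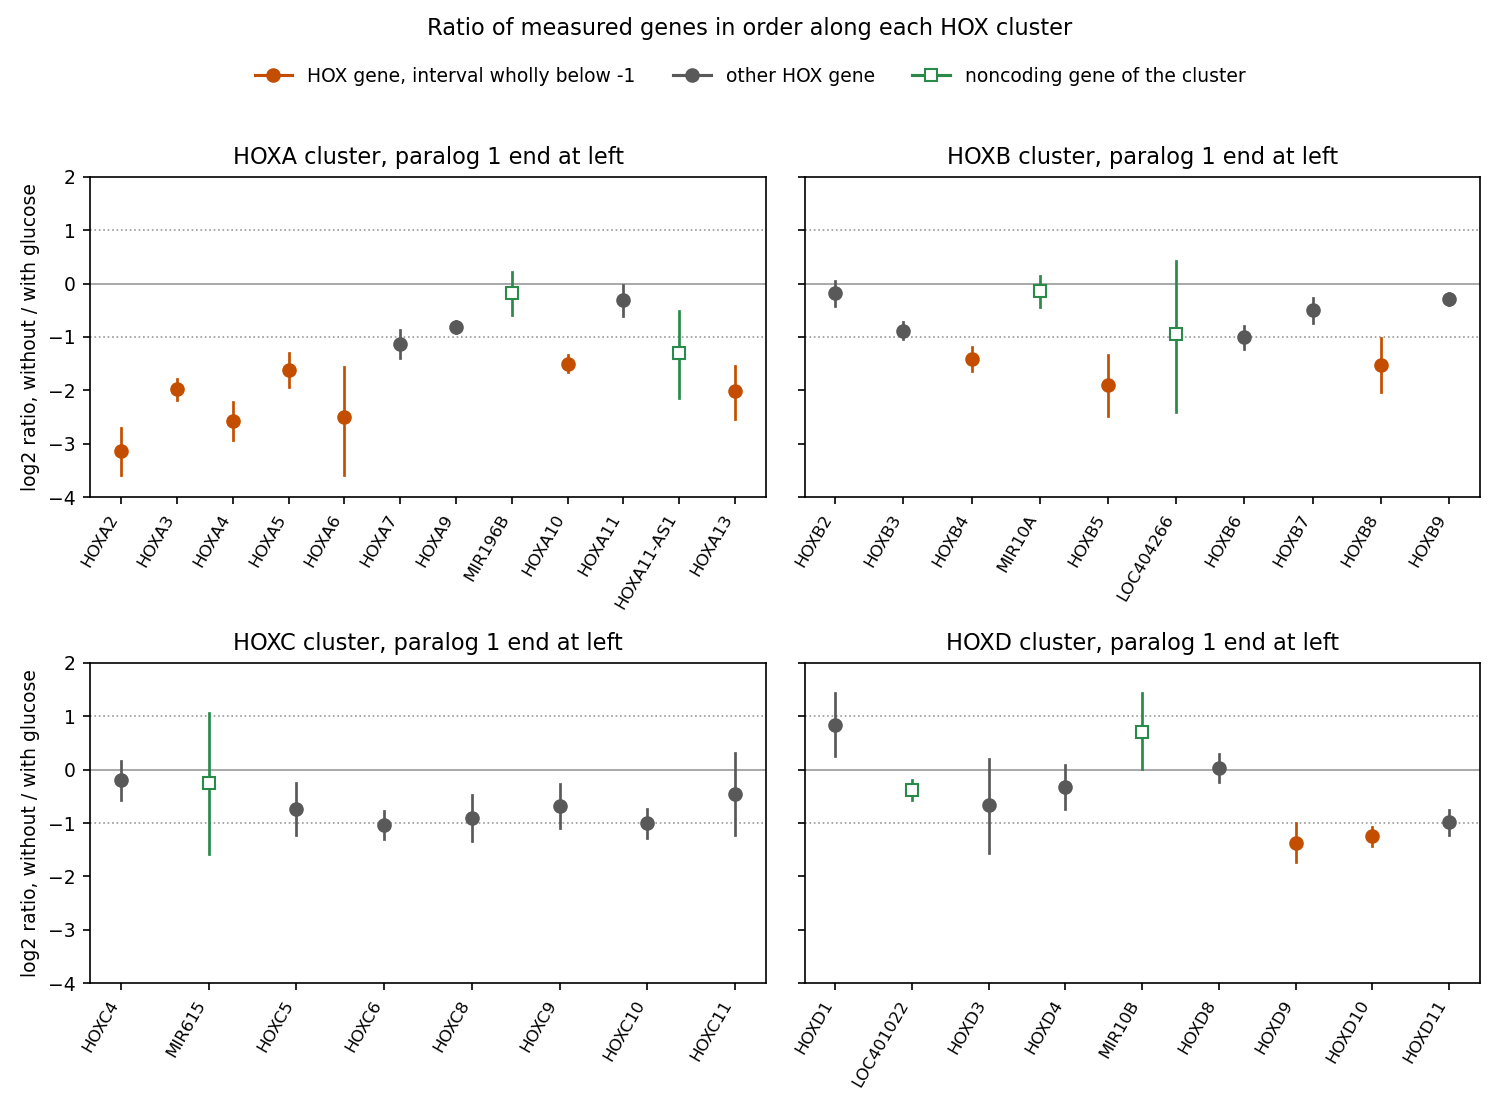
Log2 ratio (library without glucose over library with glucose) with its 95% counting interval for measured genes, in order along each cluster from the low-number end at left. Orange circles are HOX genes whose interval lies wholly below -1, grey circles are the other HOX genes, and green squares are noncoding genes of the cluster. HOXA2 to HOXA6 form a run of orange, HOXC has none, and MIR10A stands near 0 between HOXB4 and HOXB5, which are orange.

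The make-up of the HOX transcripts differed between the libraries. HOXA took 34.4% of all HOX counts without glucose (95% Wilson interval 33.3 to 35.5%) against 44.9% with glucose (44.1 to 45.7%). HOXB took 40.04% without glucose (38.9 to 41.2%) against 32.1% with glucose (31.3 to 32.9%). HOXB was thus the most counted cluster without glucose and HOXA with glucose. HOXC took 9.97% without glucose and 8.84% with glucose, and HOXD 15.6% and 14.2% in that order.

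The cluster sums followed their most counted member in part. Without HOXA9, HOXA stood at -1.63 in place of -1.36, and without HOXB9, HOXB stood at -0.89 in place of -0.65. Without HOXD10, HOXD stood at -0.56 in place of -0.83. HOXA had the lowest of the sums over all members, and its interval overlapped no other cluster's.

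By paralog number the sums were lowest at 13, 5, 3, 4 and 10. Group 5 had 213 counts without glucose (6.96 CPM) against 539 with glucose (19.3 CPM), a log2 ratio of -1.47 (-1.70 to -1.24). Group 3 stood at -1.35 (-1.48 to -1.23), group 4 at -1.35 (-1.50 to -1.20) and group 10 at -1.32 (-1.43 to -1.21). Group 13 stood at -1.85 (-2.30 to -1.41), from HOXA13 for the most part. Group 8 stood at -0.48 (-0.68 to -0.28) and group 9 at -0.59 (-0.66 to -0.51). The ratio did not move steadily with paralog number, since group 8 and group 9 lay between lower groups on both sides.

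Paralogs of 1 number differed among themselves. In group 4 the log2 ratio was -2.57 for HOXA4, -1.41 for HOXB4, -0.20 for HOXC4 and -0.32 for HOXD4, and the intervals of the first pair overlapped neither each other nor those of the others. In group 9 it was -0.82 for HOXA9, -0.28 for HOXB9, -0.68 for HOXC9 and -1.37 for HOXD9. In group 10 it was -1.50 for HOXA10, -1.0 for HOXC10 and -1.25 for HOXD10. In group 2 it was -3.13 for HOXA2 and -0.19 for HOXB2, the widest gap between paralogs that were both measured. The HOXA paralog was the lowest of its group in groups 2 to 4, 6, 7 and 10, and HOXB5, HOXB8, HOXD9 and HOXD11 were the lowest of theirs.

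The microRNA and long noncoding genes inside the clusters had no member past the rule among 7 measured, with a median log2 ratio of -0.25. Of all measured genes 6.05% were lower and 3.92% higher, so few calls would be found among so small a number at those shares. MIR10A had 203 counts without glucose (6.63 CPM) and 205 with glucose (7.33 CPM), a log2 ratio of -0.14 (-0.43 to 0.14). Its flanking genes HOXB4 and HOXB5 were both lower, with intervals apart from its own. MIR196B had 105 counts without glucose (3.43 CPM) and 109 with glucose (3.90 CPM), a log2 ratio of -0.18 (-0.58 to 0.22), next to HOXA10 at -1.50. MIR10B had 50 counts without glucose (1.63 CPM) and 28 with glucose (1.0 CPM), a log2 ratio of 0.71 (0.01 to 1.43). Counts at these short hairpin models can come from precursors or mature forms, which the tables do not separate.

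HOXA11-AS1, antisense to the HOXA11 region, had 20 counts without glucose (0.654 CPM) and 45 with glucose (1.61 CPM), a log2 ratio of -1.30 (-2.14 to -0.51). HOTAIR, the HOXC RNA known for its link to Polycomb, had 5 counts without glucose and 8 with glucose and was not measured. MIR196A1 had 5 and 12 counts and MIR196A2 had 7 and 4, without and with glucose in that order, and MIR615 had 11 and 12. Of the measured noncoding genes, HOXA11-AS1 and LOC401022 had intervals wholly below 0.

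Several HOX messages carry the letters that pair with the seeds of these microRNAs. GENCODE 29 transcripts matched by RefSeq accession gave a 3′ UTR for all 39 genes. The match of the miR-196 seed, ACTACCT, was in 8 of them, against 5.47% of 12874 3′ UTRs of other genes in the same length range. The match of the miR-10 seed, ACAGGGT, was in 2, against 9.88%, and that of miR-615-3p, GGCTCGG, in 2, against 2.35%. Only the strand of the message was read. The sites below are shown because they join a microRNA locus to a HOX gene with a value here, and capitals mark the seed match.
HOXA7, miR-196: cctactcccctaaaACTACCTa
HOXA5, miR-196: atatttttattcaaACTACCTa
HOXC8, miR-196: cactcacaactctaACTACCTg
HOXA3, miR-10: actctttgatcagaaACAGGGTa
HOXB4, miR-615-3p: aacaaatgaggcccGGCTCGGc
Over the 22 bases of the HOXA7 site, 15 can pair with miR-196a without a gap.

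The 6 measured genes with a miR-196 match had log2 ratios from -1.62 (HOXA5) to -0.50 (HOXB7), with HOXA7 at -1.13, HOXB6 at -1.01, HOXC8 at -0.90 and HOXA9 at -0.82. HOXA3, with a miR-10 match, stood at -1.98, and HOXB4 and HOXC6, with a miR-615-3p match, at -1.41 and -1.03. These ratios lay within the range of the HOX genes with no match. A match describes the letters of the message and no binding was measured.

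The promoter table held 27 windows for 20 of the 39 HOX genes. HOXA3 gave more windows than any other HOX gene. HOXC4 and HOXC5 have the same window, with a CCAAT box, and it was counted for each of them. A CCAAT box was in 18 of the 27, against 34.6% of 35116 windows of all genes, and an E box in 9 against 7.26%. The PBX-HOX site was in 3, HOXA2, HOXB1 and HOXD11, against 7.4%, and a TATA box (TATAAA) in 5 against 11.5%. The CRE (TGACGTCA) was in 0, against 1.85%. Both strands were searched. The median window of a HOX gene held 22 CG pairs, against 14 for all genes, at a GC content of 58.0% against 58.7%. Windows of paralogs share ancestry, and these shares describe the letters alone.

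Beyond the ends of the clusters most genes had ratios within 2-fold. Of 18 measured flanking genes 1 was lower and 0 higher, near the 6.05% and 3.92% of all measured genes, with a median log2 ratio of -0.14. The lower one was SKAP2, an adaptor protein gene beyond the low-number end of HOXA, with 68.4 CPM without glucose against 153 CPM with glucose (log2 ratio -1.16, -1.24 to -1.08). On the other side of HOXA, the homeobox gene EVX1 had 1 count in each library, and HIBADH, an enzyme of valine breakdown, had 86.4 CPM without glucose against 53.0 CPM with glucose (log2 ratio 0.71). Near HOXC, CBX5, the heterochromatin protein HP1 alpha, had 373 CPM without glucose and 522 CPM with glucose, and HNRNPA1, an RNA-binding protein, 135 and 154 CPM in that order. Near HOXB, CALCOCO2 had 114 CPM without glucose and 118 CPM with glucose. On the high-number side of HOXD, which starts at 176957532, ATP5G3, a subunit of ATP synthase, ended at 176046490. KIAA1715 and EVX2 of the list lie between them. ATP5G3 had 81.7 CPM without glucose and 129 CPM with glucose.

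Regulators and partners of HOX proteins were mostly within 2-fold, and the counts below stand beside the same 6.05% lower and 3.92% higher of all measured genes. The list of cofactors of the TALE homeobox class had 10 measured genes, among them PBXIP1, which encodes a PBX-binding protein outside the class. Of these 10 genes 1 was lower, PBX4, with 0.948 CPM without glucose against 3.07 CPM with glucose (log2 ratio -1.70, -2.36 to -1.08). PBX3, the most counted PBX gene, had 72.0 CPM without glucose and 90.0 CPM with glucose (-0.32), the related PKNOX1 30.2 and 42.9 CPM (-0.50), and TGIF1, a corepressor, 123 and 74.0 CPM (0.74), in the same order. The median of the list was -0.36.

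Of 30 Polycomb genes 1 was lower, CBX2, a subunit that reads methylated histone H3, with 4.77 CPM without glucose against 13.8 CPM with glucose (log2 ratio -1.53, -1.82 to -1.25). RBBP7 had 116 CPM without glucose and 210 CPM with glucose (-0.85), PCGF5 154 and 118 CPM (0.38), RBBP4 107 and 129 CPM (-0.27) and PHC2 81.0 and 130 CPM (-0.68). The median of the list was -0.16.

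Of 26 genes of the Trithorax side 1 was lower, MLL (KMT2A), the histone methyltransferase best known for keeping HOX genes active. It had 204 CPM without glucose against 488 CPM with glucose, 2.39-fold lower (log2 ratio -1.26, -1.30 to -1.22), on 6239 and 13657 counts. AFF4, a subunit of the super elongation complex, had 310 CPM without glucose and 273 CPM with glucose (0.18), the methyltransferases MLL3 110 and 135 CPM (-0.30) and ASH1L 90.5 and 110 CPM (-0.28), and PSIP1, which tethers MLL to chromatin, 84.5 and 140 CPM (-0.73). The median of the list was -0.20. Of 8 genes for CTCF, cohesin and geminin, GMNN, geminin, a replication regulator that also binds HOX proteins, was lower, at 21.0 CPM without glucose against 47.1 CPM with glucose (-1.16). RAD21, a cohesin subunit, had 289 CPM without glucose and 488 CPM with glucose (-0.76).

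In the retinoic acid pathway 4 of 14 measured genes were lower and 0 higher, against 6.05% and 3.92% of all measured genes, with a median of -0.68. DHRS3, a retinaldehyde reductase that retinoic acid induces, had 5.82 CPM without glucose against 72.9 CPM with glucose, 12.5-fold lower (log2 ratio -3.65, -3.88 to -3.43). STRA6, the receptor that takes up retinol, had 4.77 CPM without glucose against 29.3 CPM with glucose, 6.14-fold lower (-2.62, -2.88 to -2.36). ALDH1A1, an enzyme that makes retinoic acid, had 2.81 CPM without glucose against 16.05 CPM with glucose, 5.71-fold lower (-2.51, -2.86 to -2.18). NRIP1, a corepressor of nuclear receptors, had 164 CPM without glucose against 440 CPM with glucose, 2.69-fold lower (-1.43, -1.48 to -1.38).

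The nuclear receptors of the list were not past the rule. RARG, a retinoic acid receptor, had 10.7 CPM without glucose and 23.4 CPM with glucose (-1.14, -1.33 to -0.94), and RARA 26.9 and 24.7 CPM (0.12) in that order. Their partner RXRA had 38.4 CPM without glucose and 59.9 CPM with glucose (-0.64), and RXRB 45.8 and 55.7 CPM (-0.28) in that order. NCOR1, a corepressor, had 270 CPM without glucose and 318 CPM with glucose (-0.23), and RDH11, a retinal reductase, 112 and 159 CPM (-0.50). Of the measured HOX genes numbered 1 to 5 and reported here, HOXA2 to HOXA5, HOXB4 and HOXB5 were lower. HOXB2, HOXB3, HOXC4, HOXC5, HOXD1, HOXD3 and HOXD4 were not past the rule. A link between these genes and the retinoic acid pathway was not tested.

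Homeobox genes outside the clusters had no member past the rule among 13 measured, with a median log2 ratio of -0.39. SIX4 had 16.3 CPM without glucose and 33.1 CPM with glucose (-1.02) and DLX1 7.84 and 7.90 CPM (-0.01). CDX2 had 1 count in each library, and the genes of the CDX and ParaHox families were not measured. The lists of regulators, partners, neighbours and other homeobox genes all had medians nearer to 0 than the HOX genes.

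**Figure D4:**
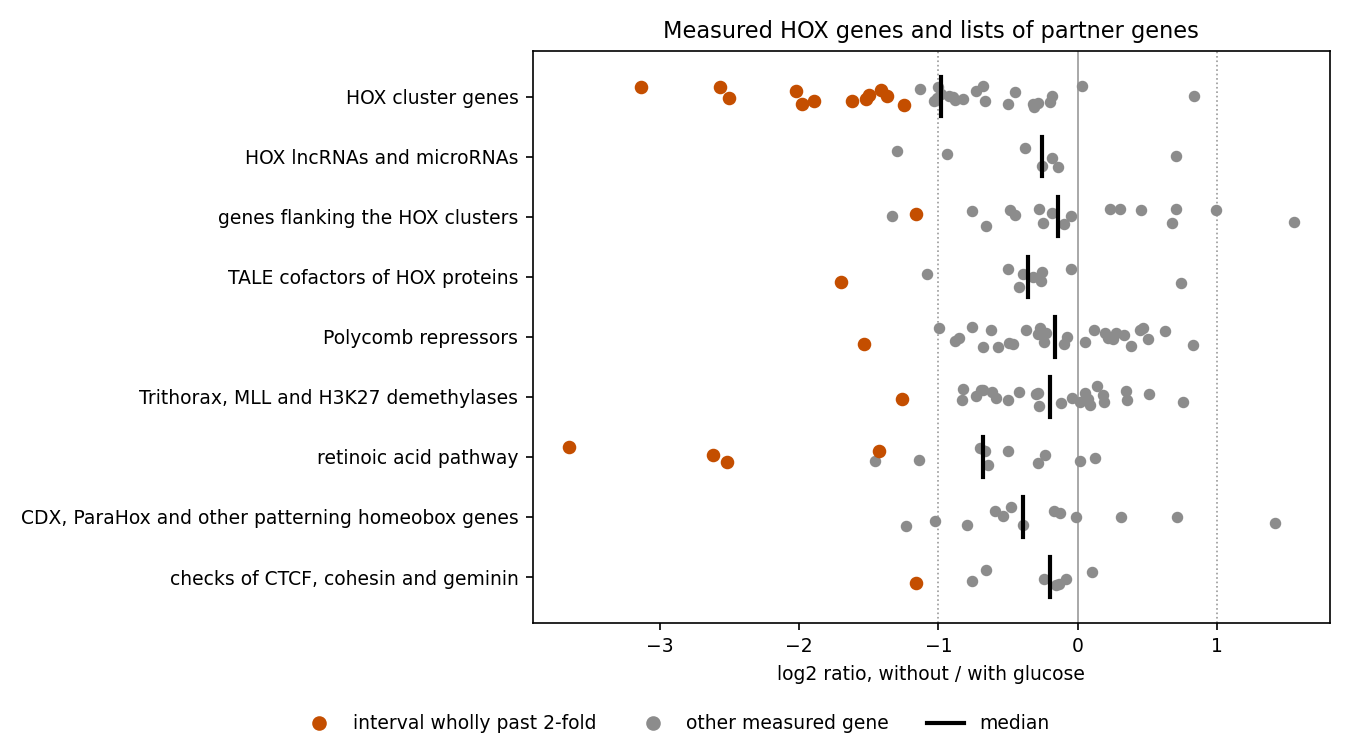
Log2 ratios (library without glucose over library with glucose) of the measured HOX genes and of the measured genes of the lists of neighbours, regulators, partners and other homeobox genes, 1 point per gene, with the median as a black bar. Orange points have a counting interval wholly past 2-fold. The HOX median of -0.98 lies left of the median of each list drawn, and the retinoic acid list comes next at -0.68; cell type markers are not drawn.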

How the data were processed

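RNA-seq libraries of 786-O cells were used, 1 without glucose and 1 with glucose, each mapped to its group by its title. The deposited count per gene model was a raw whole number, per the file headers and the values, and the deposited RPKM, per the file headers, was used only to check that it follows from count and length. The deposited number of exons with more than 10 reads is given for HOXA6. Coordinates are those of hg19, which the submitters' processing notes name, and the sources used here give no aligner, counter, strand use or library kit. Of 24364 rows, 528 that repeated another row were dropped, and counts were summed to 22595 symbols. Library sizes were scaled by TMM in edgeR 4.0.16 over all symbols (R 4.3.3), with DESeq2 1.42.0 size factors as an alternative. Ratios had exact Clopper-Pearson 95% intervals (scipy 1.17.1, Python 3.11.15), levels exact Poisson intervals, and shares Wilson intervals. A count of 0 was read as up to 3 counts (0.0980 CPM without glucose, 0.107 CPM with glucose). PCR copies are not independent molecules, so these cover counting error only. On Poisson counts simulated for the same 14240 genes, 95.5% of intervals held the true ratio. These counts follow the model that the intervals assume, so they check the calculation and not the spread between cultures. No test was possible between single libraries. The median measured HOX gene had 469 counts. The HOX genes, the lists and the rule were chosen with earlier results of these data known. HOX genes were described, and of each list genes past the rule and up to 4 others with the most counts; the values of some genes, 1 HOX gene among them, are not reported here but stay in the totals, counts and medians; others named were chosen after their values were seen. One listed symbol, LOC401463, lies outside the HOX clusters and was not measured.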

Additional observations from a re-analysis of the deposited data

How the results depend on the processing

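No HOX gene was higher under any of the settings run, and the number of lower genes stayed between 10 and 12 under the 5 other scalings. It was 20 asking for 1.5-fold, where 1744 of all measured genes were lower, 2 asking for 4-fold (144), and 16 by the ratio alone (1490). DESeq2 size factors gave 10, without HOXB8 and HOXD9. Scaling by total counts gave log2 ratios of -1.42 for HOXA and -0.72 for HOXB, and leaving out the most counted gene gave -1.63, -0.89 and -0.56 for HOXA, HOXB and HOXD. HOXD8 turned to -0.0400 with total counts and -0.0025 with upper-quartile scaling. The median of the measured HOX genes lay between -1.05 and -0.90. The scaling from measured genes alone, and other scalings of lists, paralog sums and single genes, were chosen after seeing the data. The median of all measured genes lay between -0.04 and 0.05 over the scalings. No paired analysis was possible because only 1 library stood for each condition, and no library could be left out. Depth limits the genes under 100 counts, whose intervals are wide.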
